A study of Mus musculus with 13 samples.

Results

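Dusp4, Dusp5, Dusp6, Spry1, Spry2, Spry4, Spred1 and Spred2 are genes whose products hold back the Ras to ERK pathway, and they were followed across 13 arrays of the mouse SM1 melanoma. They were taken as every probe set whose annotation names one of these symbols and no other, which gave 23 of the 45101 probe sets of the array, for 8 of the 18193 genes with a probe set of their own. ERK is the last kinase of a cascade that runs from growth factor receptors through Ras, RAF and MEK. Active ERK induces transcription of its own restraints: the dual-specificity phosphatases (DUSPs) remove phosphate from ERK and related kinases, and the Sprouty and Spred proteins act further up, around Ras and RAF. Transcripts of these genes are therefore widely used as a readout of ERK output, and melanomas with mutant BRAF are known for high levels of several of them.

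SM1 is a transplantable mouse melanoma line with mutant Braf, grown here in C57BL/6 mice. Recipients were given splenocytes of pmel-1 mice, a strain with a transgenic T cell receptor for the melanocyte protein gp100, or C57BL/6 splenocytes as the control transfer (named Mock in the titles). Control recipients received vehicle (V, 2 arrays) or dabrafenib with trametinib (D+T, 2 arrays), and pmel-1 recipients received vehicle (2 arrays), dabrafenib (D, 2 arrays), trametinib (T, 2 arrays) or D+T (3 arrays). Dabrafenib inhibits mutant BRAF and trametinib inhibits MEK, the kinase between RAF and ERK. All 6 groups carried the tumour and a splenocyte transfer, so no group lacks either. The sources used here give no doses, times or animal ages and do not say whether replicates came from separate animals, so the p-values measure only the spread between these samples, which may be technical. Each sample was whole tumour, in which fewer cells of a type and less RNA per cell cannot be told apart.

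Values are RMA log2 intensities, so a difference of 1 is a factor of 2. Where a gene has several probe sets, the brightest on average stands for it, and levels are compared between arrays for 1 probe set, never between genes. All 8 genes passed the filter on low values (above 5.79 on at least 2 arrays) and 13785 genes were tested, while 20 of the 23 probe sets passed and 1 each of Spry4, Spred1 and Spred2 did not. A gene is said to fall or rise where limma gave an adjusted p under 0.05, with Benjamini-Hochberg adjustment over all genes tested in that comparison.

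The sequences upstream of the genes were taken from RefSeq (mouse build GRCm38.p6), for 6 of the 8 genes. The search did not cover every chromosome, and no sequence was taken for Dusp4 or Spry4. Those of Spry1 and Spry2, which fell under each single drug, of Dusp6, which fell under trametinib, and of Dusp5, which fell in no comparison, are shown because the arrays measure the transcripts that start there. Each line holds the 250 bases before the annotated start, 5′ to 3′ on the gene's own strand. Dusp5 lies on the plus strand at chr19:53528895-53529144, Dusp6 on the plus strand at chr10:99262981-99263230, Spry1 on the plus strand at chr3:37639697-37639946 and Spry2 on the minus strand at chr14:105896820-105897069. Capitals mark the motif matches described after the sequences.
Dusp5: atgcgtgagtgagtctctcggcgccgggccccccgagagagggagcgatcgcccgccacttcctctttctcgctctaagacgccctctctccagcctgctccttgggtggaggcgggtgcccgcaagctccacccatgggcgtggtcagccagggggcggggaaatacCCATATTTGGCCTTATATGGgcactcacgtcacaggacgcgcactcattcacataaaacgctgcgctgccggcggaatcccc
Dusp6: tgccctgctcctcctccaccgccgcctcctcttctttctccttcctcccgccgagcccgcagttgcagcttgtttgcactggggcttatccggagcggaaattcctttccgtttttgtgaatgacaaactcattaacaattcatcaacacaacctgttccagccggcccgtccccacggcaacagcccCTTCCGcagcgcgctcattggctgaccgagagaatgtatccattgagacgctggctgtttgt
Spry1: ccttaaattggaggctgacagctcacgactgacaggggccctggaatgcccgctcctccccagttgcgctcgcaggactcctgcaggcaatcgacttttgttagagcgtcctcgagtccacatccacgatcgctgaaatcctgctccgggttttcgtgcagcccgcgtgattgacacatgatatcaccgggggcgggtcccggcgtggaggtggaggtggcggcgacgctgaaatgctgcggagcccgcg
Spry2: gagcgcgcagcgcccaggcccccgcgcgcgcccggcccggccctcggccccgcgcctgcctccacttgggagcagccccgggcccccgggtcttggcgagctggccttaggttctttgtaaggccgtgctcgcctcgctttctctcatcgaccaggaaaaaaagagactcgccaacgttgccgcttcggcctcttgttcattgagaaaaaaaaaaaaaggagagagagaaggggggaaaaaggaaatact
Searched on both strands were the ETS core CGGAAG, the cyclic AMP response element TGACGTCA, the AP-1 motif TGANTCA and the CArG box, the site of serum response factor. The Dusp5 sequence holds 2 adjoining CArG boxes, at 82 to 73 and 72 to 63 bases before the start, whereas 1.5% of the 32851 promoter windows of this length in the table hold at least 1. The Dusp6 sequence holds 1 ETS core, on the opposite strand at 62 to 57 bases before the start. The Spred1 and Spred2 windows, not printed, hold 1 ETS core each, and 13.6% of all windows hold one. No searched motif was found in the Spry1 and Spry2 windows. The cyclic AMP response element occurred in 1.5% of all windows and the AP-1 motif in 6.7%, and neither occurred in the 6 members' windows. The matches did not overlap each other.

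Spry1 and Spry4 fell in tumours given D+T in both kinds of recipient, Spry2 fell in pmel-1 recipients, and the Dusp and Spred genes did not pass the test under D+T. Spry4 changed most, by −2.97 ± 0.58 in pmel-1 recipients (log2 difference ± SE, 3 against 2 arrays) and −3.18 ± 0.64 in control recipients (2 against 2). Trametinib alone lowered 5 of the 8 genes, adding Dusp6 and Spred2 to the 3 Sproutys, and dabrafenib alone lowered the 3 Sproutys. Of all genes tested, 19.1% fell under trametinib, 19.6% under dabrafenib, and 21.2% and 16.7% under D+T in pmel-1 and control recipients. With the 3′/5′ signal ratio of the arrays, a measure of RNA quality that was higher in treated pmel-1 recipients, as a covariate, Spry1 alone was called in each of those 3 treatments. The ratio did not overlap between treated and vehicle arrays of pmel-1 recipients, so drug and RNA quality cannot be told apart there. Dusp5 stayed within 0.26 of vehicle in each of the 4 comparisons. Spry1 and Spry4 fell in all 4, Spry2 in 3 and Dusp6 and Spred2 in 1. Direct tests between the drug groups called none of the 8 genes, so the deeper values under trametinib are not shown to differ from those under dabrafenib or D+T.

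**Figure D1:**
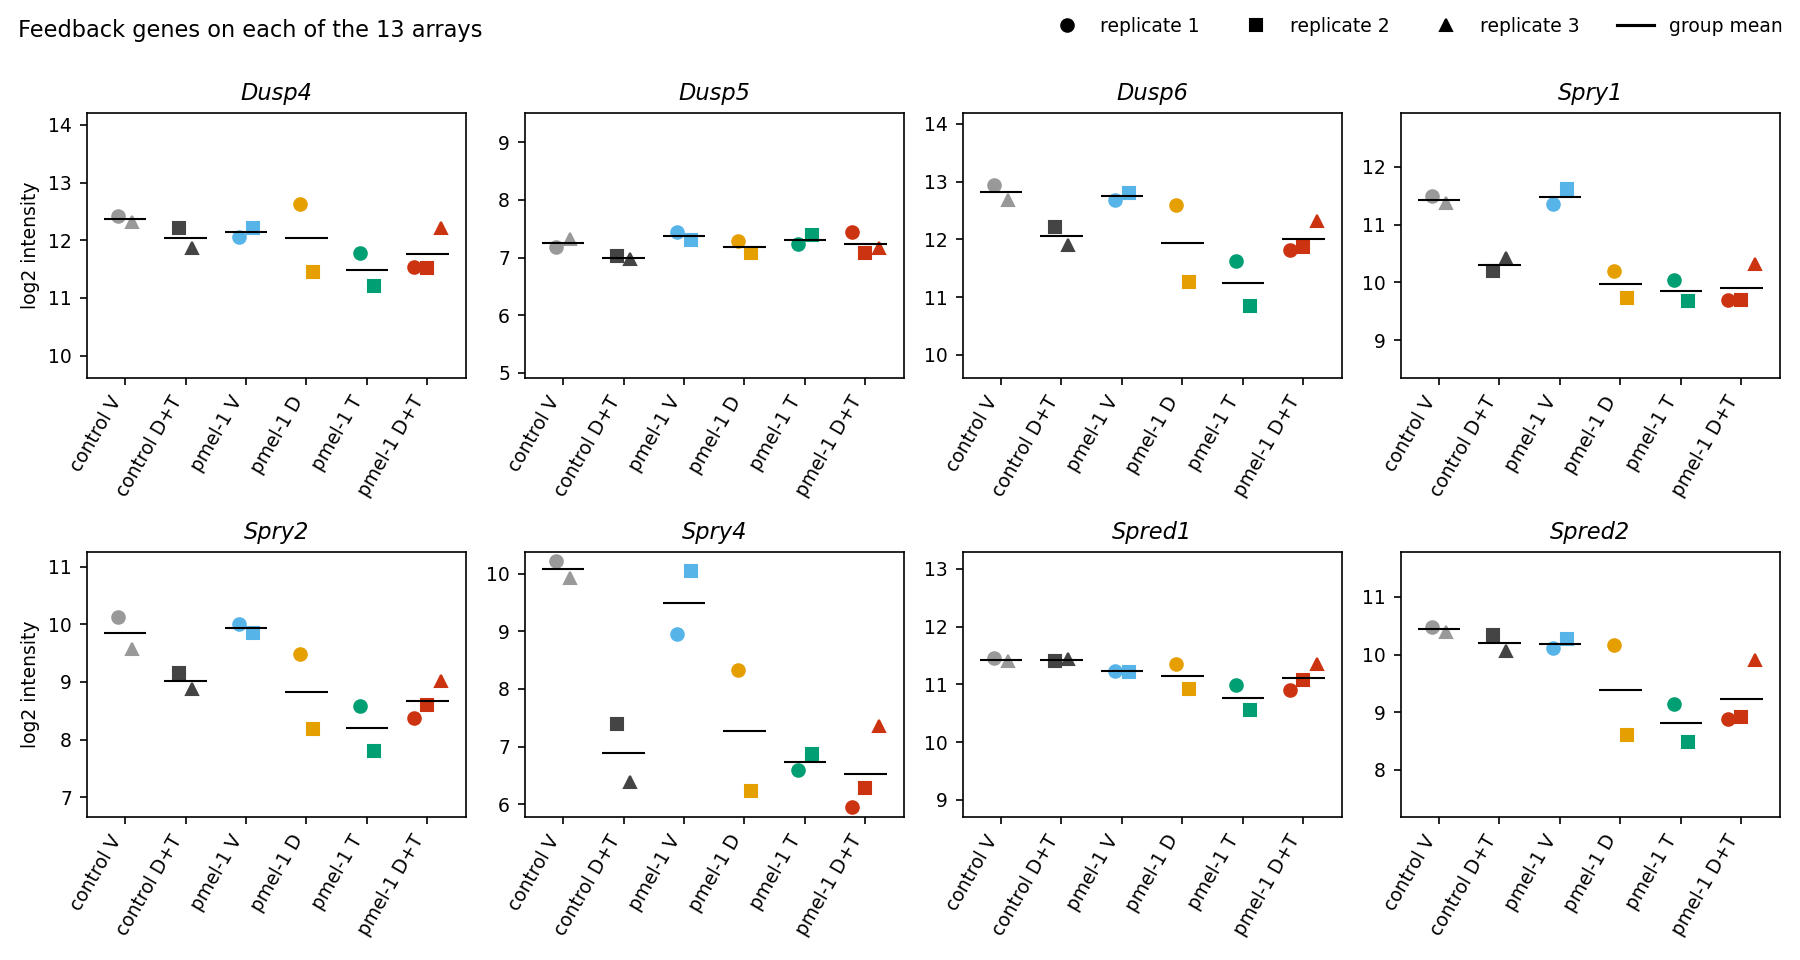
RMA log2 intensity of the 8 genes on each of the 13 arrays, by group, with V for vehicle, D for dabrafenib and T for trametinib, marker shape for the replicate number and a line for the group mean. Every panel spans 4.6 log2 units, and for Dusp6, Spry1, Spry2 and Spry4 all 9 drug arrays lie below all 4 vehicle arrays.

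The first question the design poses is what each drug arm did to these genes against vehicle in the same kind of recipient. In pmel-1 recipients D+T lowered 3 of 8 genes and raised none, against 21.2% of all genes tested that fell. Under D+T in control recipients 2 of 8 fell, against 16.7% of all genes. Under dabrafenib 3 of 8 fell (19.6% of all genes) and under trametinib 5 of 8 (19.1% of all genes). The median log2 change of the 8 genes was −0.85, −0.54, −0.81 and −1.44 in that order, beside medians between 0.00 and 0.03 over all genes. The drug arms of the pmel-1 recipients share the same 2 vehicle arrays, so these 3 sets of values are not independent of each other.

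Groups were also compared by whether their arrays overlapped, without a test. All arrays lay below all vehicle arrays for 5 of 8 genes under D+T in pmel-1 recipients (29.8% of all genes), for 7 under D+T in control recipients (33.9%), for 5 under dabrafenib (34.2%) and for 7 under trametinib (33.8%). Over both kinds of recipient, 4 of the 8 genes were lower on all 9 drug arrays than on all 4 vehicle arrays, which held for 17.2% of all genes tested. Those 4 were Dusp6, Spry1, Spry2 and Spry4. For Dusp6 and Spry2 the gap was narrow: the highest drug array read 12.60 against a lowest vehicle array of 12.69 for Dusp6, and 9.48 against 9.58 for Spry2.

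**Figure D2:**
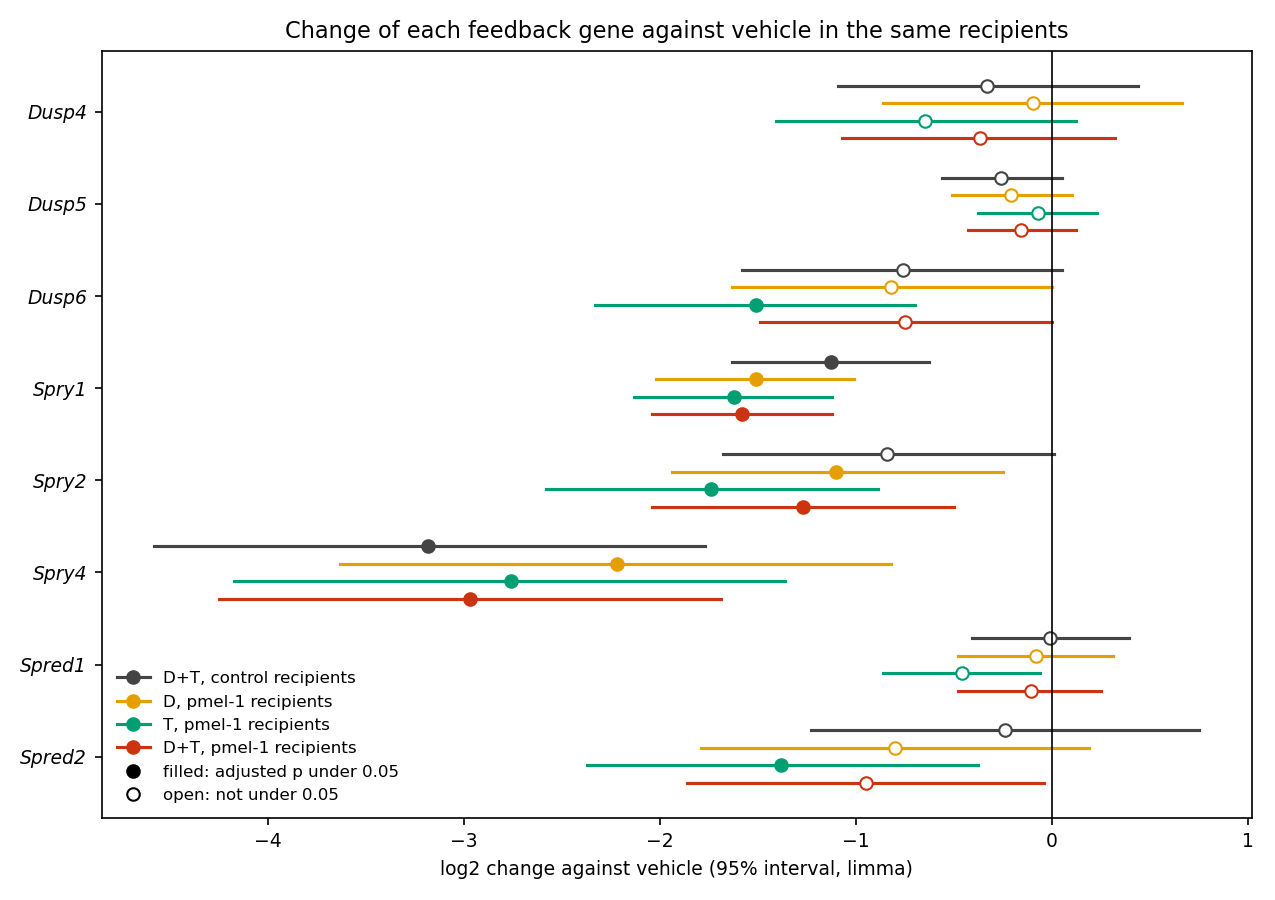
Log2 change of each gene against vehicle in the same kind of recipient, from the limma fit, with its 95% interval; filled points have an adjusted p under 0.05. Spry1 and Spry4 are filled in all 4 comparisons, Dusp5 lies within 0.26 of 0, and the widest intervals belong to Spry4.

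Among the phosphatases, Dusp6 is the one that acts on ERK in the cytoplasm with high selectivity, and it is among the most used transcript readouts of the pathway. Vehicle arrays read 12.95 and 12.69 in control and 12.69 and 12.80 in pmel-1 recipients, and the D+T arrays 12.21 and 11.91 in control and 11.81, 11.87 and 12.32 in pmel-1 recipients. The dabrafenib arrays read 12.60 and 11.26 and the trametinib arrays 11.63 and 10.84. Trametinib arrays were the lowest group except that the second dabrafenib array fell between them, and the first dabrafenib array was nearly at vehicle. Dusp6 fell by 1.51 ± 0.37 under trametinib (2.85-fold lower, adjusted p = 0.0077). It differed from vehicle by −0.75 ± 0.34 under D+T in pmel-1 recipients (adjusted p = 0.0955), −0.76 ± 0.37 under D+T in control recipients (adjusted p = 0.1389) and −0.82 ± 0.37 under dabrafenib (adjusted p = 0.1024), none of which passed. The trametinib call was lost with the 3′/5′ ratio as a covariate (−0.93, limma adjusted p = 0.1294) and without the second trametinib array, which left 1 (−1.12). Without the first dabrafenib array, which also left 1, the dabrafenib change was −1.48. The D+T values passed when either dabrafenib array was left out of the shared fit, with unchanged differences (−0.75 and −0.76). The dabrafenib group of 1 array then added nothing to the shared variance, and no D+T array had changed.

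Dusp4 encodes a nuclear phosphatase of ERK and other MAP kinases. It read 12.42 and 12.32 on control vehicle arrays, 12.22 and 11.86 with D+T in control recipients, and 12.05 and 12.22 on pmel-1 vehicle arrays. In the treated pmel-1 recipients it read 12.62 and 11.45 with dabrafenib, 11.77 and 11.20 with trametinib and 11.54, 11.51 and 12.22 with D+T. Its largest difference was −0.65 ± 0.35 under trametinib (adjusted p = 0.1706), where the arrays did not overlap with vehicle, while the dabrafenib arrays lay on both sides of it. The trametinib value passed in 2 of 23 alternatives and was −0.02 with the 3′/5′ ratio as a covariate. The 2 were the fit of only the arrays compared (adjusted p = 0.0388) and the fit without 3 arrays with high adipocyte markers. The latter kept a single trametinib array (−0.93). Dusp5 encodes a nuclear phosphatase that acts on ERK. It lay between 6.97 and 7.45 on all 13 arrays, and its differences from vehicle were −0.16 ± 0.13 under D+T in pmel-1 recipients, −0.26 ± 0.14 under D+T in control recipients, −0.21 ± 0.14 under dabrafenib and −0.07 ± 0.14 under trametinib. Their intervals reached no lower than −0.56, so a fall of the size seen for Spry1 lies outside all 4.

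The Sproutys are adaptor proteins that bind components of receptor and Ras signalling and limit the activation of ERK. Spry1 read 11.49 and 11.38 on control vehicle arrays and 11.35 and 11.61 on pmel-1 vehicle arrays, and 10.19 and 10.42 with D+T in control recipients. It read 10.20 and 9.73 with dabrafenib, 10.04 and 9.67 with trametinib and 9.69, 9.70 and 10.32 with D+T in pmel-1 recipients. The 3 drug groups of the pmel-1 recipients overlapped each other and all drug arrays lay at least 0.93 below the lowest vehicle array. Spry1 fell in all 4 comparisons, with log2 changes of −1.58 ± 0.21 under D+T in pmel-1 recipients (2.98-fold lower, adjusted p = 1.43e-04), −1.51 ± 0.23 under dabrafenib (adjusted p = 4.46e-04), −1.62 ± 0.23 under trametinib (adjusted p = 3.02e-04) and −1.13 ± 0.23 under D+T in control recipients (2.19-fold lower, adjusted p = 0.0028). It was the one gene of the 8 that passed in all 4 comparisons under every alternative tried.

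Spry2 read 10.12 and 9.58 on control vehicle arrays, 10.01 and 9.85 on pmel-1 vehicle arrays and 9.16 and 8.88 with D+T in control recipients. In pmel-1 recipients it read 9.48 and 8.19 with dabrafenib, 8.59 and 7.80 with trametinib and 8.37, 8.61 and 9.02 with D+T. The first dabrafenib array was the highest of the drug arrays and the second trametinib array the lowest. In pmel-1 recipients Spry2 fell under each treatment, with log2 changes of −1.27 ± 0.35 under D+T (2.41-fold lower, adjusted p = 0.0118), −1.10 ± 0.38 under dabrafenib (adjusted p = 0.0400) and −1.74 ± 0.38 under trametinib (3.33-fold lower, adjusted p = 0.0043). Under D+T in control recipients it differed by −0.84 ± 0.38 (adjusted p = 0.1169). The D+T call in pmel-1 recipients was lost without the first vehicle array (−1.19). The dabrafenib call was lost without the second dabrafenib array (−0.45) or either pmel-1 vehicle array (−1.02 and −1.18). Each of these fits left 1 array in a group compared. The dabrafenib call was also lost without the second D+T array of pmel-1 recipients (limma adjusted p = 0.0515) or either D+T array of control recipients. The value in control recipients passed, unchanged at −0.84, when either dabrafenib array was left out. That group of 1 array then added nothing to the shared variance.

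Spry4 had the widest range of the 8 genes. It read 10.21 and 9.93 on control vehicle arrays, 8.95 and 10.04 on pmel-1 vehicle arrays, and 7.40 and 6.39 with D+T in control recipients. In pmel-1 recipients it read 8.32 and 6.23 with dabrafenib, 6.60 and 6.87 with trametinib and 5.95, 6.29 and 7.35 with D+T. The first dabrafenib array lay above all other drug arrays and 0.63 below the lower pmel-1 vehicle array. Spry4 fell in all 4 comparisons, with log2 changes of −2.97 ± 0.58 under D+T in pmel-1 recipients (7.84-fold lower, adjusted p = 0.0017), −3.18 ± 0.64 under D+T in control recipients (9.05-fold lower, adjusted p = 0.0026), −2.22 ± 0.64 under dabrafenib (4.67-fold lower, adjusted p = 0.0161) and −2.76 ± 0.64 under trametinib (6.79-fold lower, adjusted p = 0.0055). Among all genes tested its fall ranked 20 of 13785 under D+T in pmel-1 recipients and 14 of 13785 in control recipients. The dabrafenib call was lost without the second dabrafenib array (−1.18) or the second pmel-1 vehicle array (−1.68), and the trametinib call without that vehicle array (−2.22). Each of these fits left 1 array in a group compared. With the 3′/5′ ratio as a covariate none of the 3 pmel-1 calls was kept, at −1.12 under D+T (adjusted p = 0.1314), −0.41 under dabrafenib (adjusted p = 0.6419) and −1.29 under trametinib (adjusted p = 0.0613).

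The Spreds share a domain with the Sproutys and bring the Ras inhibitor neurofibromin to the membrane. Spred2 read 10.48 and 10.40 on control vehicle arrays, 10.11 and 10.27 on pmel-1 vehicle arrays and 10.34 and 10.06 with D+T in control recipients. It read 10.17 and 8.60 with dabrafenib, 9.14 and 8.49 with trametinib and 8.88, 8.92 and 9.91 with D+T in pmel-1 recipients. The first dabrafenib array lay at vehicle, and the third D+T array lay 0.99 above the next D+T array. Spred2 fell by 1.38 ± 0.45 under trametinib (2.60-fold lower, adjusted p = 0.0316). It differed by −0.95 ± 0.41 under D+T in pmel-1 recipients (adjusted p = 0.0827), −0.80 ± 0.45 under dabrafenib (adjusted p = 0.1858) and −0.24 ± 0.45 under D+T in control recipients (adjusted p = 0.7326). The trametinib call was lost with the 3′/5′ ratio as a covariate (−0.52, limma adjusted p = 0.4402). It was also lost without the second trametinib array (−1.05) or either pmel-1 vehicle array (−1.45 and −1.3), each of which left 1 array in its group. The D+T value passed without the last of its arrays, replicate 3 (−1.29, limma adjusted p = 0.0235). It also passed, unchanged at −0.95, when either dabrafenib array was left out and that group added nothing to the shared variance. Without the first dabrafenib array, which left 1, the dabrafenib change was −1.58.

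Spred1 read 11.45 and 11.40 on control vehicle arrays, 11.41 and 11.43 with D+T in control recipients and 11.23 and 11.22 on pmel-1 vehicle arrays. In treated pmel-1 recipients it read 11.36 and 10.92 with dabrafenib, 10.98 and 10.55 with trametinib and 10.90, 11.08 and 11.35 with D+T. Only under trametinib did its arrays lie apart from vehicle, by a difference of −0.46 ± 0.18 (adjusted p = 0.0671) that passed in 6 of 23 alternatives, among them the mean over the probe sets of the gene (−0.49, adjusted p = 0.0330). The other 3 differences lay between −0.11 and −0.01.

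**Figure D3:**
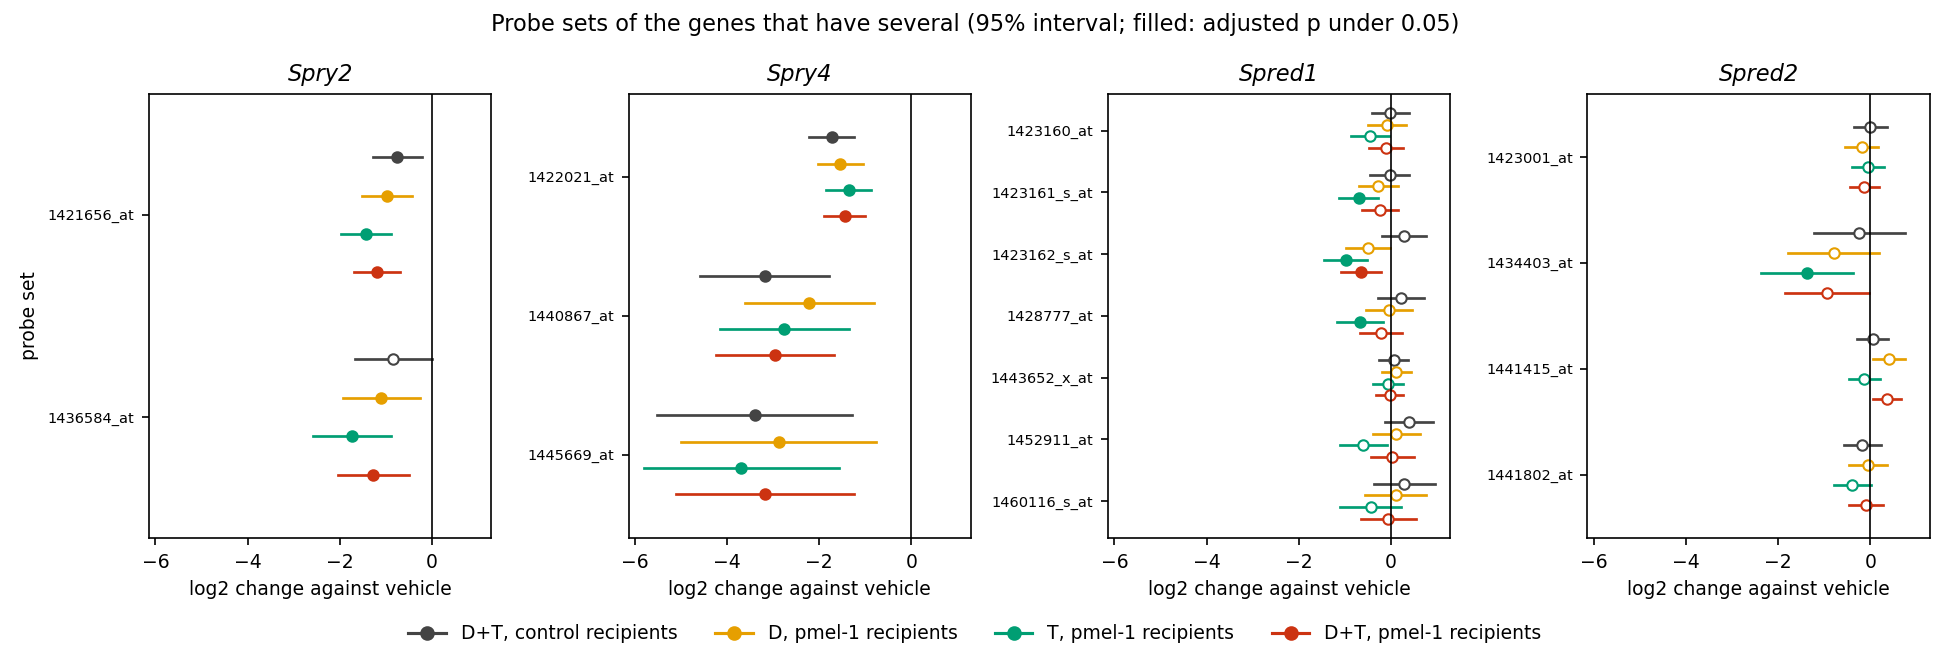
Log2 change against vehicle for each tested probe set of the genes with several, with its 95% interval from a limma fit over 29168 probe sets; filled points have an adjusted p under 0.05. All 3 Spry4 probe sets are filled in every comparison, though 1422021_at passed the filter only through vehicle arrays. The Spred1 probe sets are filled mostly under trametinib.

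Taken by probe set, 7 of the 20 tested fell under D+T in pmel-1 recipients (21.4% of all probe sets), 5 under D+T in control recipients (13.7%), 6 under dabrafenib (19%) and 11 under trametinib (18.5%), and none rose. Both Spry2 probe sets and all 3 tested Spry4 probe sets fell under each treatment in pmel-1 recipients. The second Spry2 probe set (1421656_at) also fell under D+T in control recipients, by 0.75 ± 0.25 (adjusted p = 0.0409), where the first did not. Under D+T in pmel-1 recipients the Spry4 probe set 1422021_at gave −1.44 ± 0.20, 1440867_at −2.97 ± 0.58 and 1445669_at −3.18 ± 0.88. On all 9 drug arrays 1422021_at read under the filter level of 5.79, from 4.88 to 5.66, against 6.63 to 7.0 with vehicle. It passed the filter only through the vehicle arrays, so a fall was the only call open to it, and the counts above include it. 1445669_at read under that level on 2 of the 3 D+T arrays of pmel-1 recipients (4.46 and 4.88) and on both trametinib arrays (5.27 and 4.05). It also did so on the second dabrafenib array (3.78) and a D+T array of control recipients (4.85). The changes of these probe sets are therefore given without a fold and are not compared in size.

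The probe sets of the Spreds did not move together. Of the 7 tested for Spred1, 3 fell under trametinib, with changes of −0.98 ± 0.22 (1423162_s_at, adjusted p = 0.0050), −0.69 ± 0.19 (1423161_s_at, adjusted p = 0.0157) and −0.67 ± 0.23 (1428777_at, adjusted p = 0.0378). The first of these also fell under D+T in pmel-1 recipients, by 0.65 ± 0.20 (adjusted p = 0.0199), and no Spred1 probe set fell under dabrafenib or in control recipients. Of the 4 tested for Spred2, the fall under trametinib was seen by 1434403_at and by none of the other 3, which lay at −0.06, −0.13 and −0.40.

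The second question is how deep the loss went under each drug, which was tested directly between the drug groups. Dabrafenib against trametinib called 0 of 8 genes by limma, where 0.776% of all genes were called. At an unadjusted p under 0.05 were 0 of 8 and 1620 of 13785 genes. Expression was higher under dabrafenib for 7 of 8 genes, with a median difference of 0.54. Dusp6 differed most, by 0.69 (95% interval −0.12 to 1.51), followed by Spry2 at 0.64 (−0.20 to 1.49). Both intervals include 0 and also differences larger than 2-fold. Spry1 differed by 0.11 (−0.39 to 0.61), so for this gene the interval leaves out a 2-fold difference in either direction.

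Adding the second drug to either one was compared in the same way. D+T against dabrafenib called 0 of 8 genes and 0% of all genes tested, with 0 of 8 and 246 of 13785 at an unadjusted p under 0.05. The 8 differences ran from −0.75 for Spry4 (95% interval −2.03 to 0.53) to 0.07 for Dusp6 (−0.68 to 0.81). D+T against trametinib called 0 of 8 genes and 1.1% of all genes. At an unadjusted p under 0.05 were 1 of 8, Dusp6, and 1772 of 13785 genes. Dusp6 was higher by 0.76 under D+T than under trametinib alone (95% interval 0.02 to 1.51, limma adjusted p = 0.3752). Spry2 (0.47), Spred2 (0.43) and Spred1 (0.35) also read higher under D+T, and Spry4 lower (−0.21). No fall was therefore shown to be deeper with both drugs than with one.

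The third question is whether the transferred T cells mattered for the drug response. Among vehicle tumours, pmel-1 against control recipients called 0 of 8 genes and 0% of all genes, with 0 of 8 and 1822 of 13785 at an unadjusted p under 0.05, and the differences ran from −0.57 (Spry4) to 0.13. Among D+T tumours 0 of 8 were called and 4.24% of all genes. At an unadjusted p under 0.05 were 1 of 8, Spred2, and 3342 of 13785 genes. Spred2 read lower in pmel-1 recipients by 0.96, with a limma adjusted p of 0.1809. The difference between the 2 drug responses, tested as an interaction, called 0 of 8 genes and 0.283% of all genes. At an unadjusted p under 0.05 were 0 of 8 and 2204 of 13785 genes. The interaction values of the 8 genes ran from −0.71 to 0.21.

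In the treated pmel-1 groups replicates differed for these genes more than for most. The 2 dabrafenib arrays differed by 2.09 for Spry4, 1.57 for Spred2, 1.33 for Dusp6, 1.29 for Spry2 and 1.18 for Dusp4, each time with the first array higher. The median SD of the 8 genes within the dabrafenib group was 0.871, against 0.122 over all genes tested, and 8 of 8 lay above that median. For Spry4, 0.181% of all genes had a larger SD in this group, and for Dusp6 0.863%. In the trametinib group the medians were 0.349 and 0.092, in the D+T group of pmel-1 recipients 0.346 and 0.137, and in the pmel-1 vehicle group 0.111 and 0.088. With D+T in control recipients they were 0.198 and 0.093, and in the control vehicle group the 8 genes varied less than all genes (0.088 and 0.099, with 3 of 8 above).

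The same arrays stood apart for most of the genes. The median change of the 8 genes against the vehicle mean was −0.12 on the first and −1.53 on the second dabrafenib array, −1.08 and −1.75 on the trametinib arrays, −1.12, −1.07 and −0.35 on the D+T arrays of pmel-1 recipients and −0.42 and −0.71 on those of control recipients. The first dabrafenib array and the third D+T array thus stood closest to vehicle. On the first dabrafenib array Spry1 (−1.28), Spry4 (−1.18) and Spry2 (−0.45) still lay below vehicle. Dusp6 read −0.15, Dusp5 −0.1, Spred2 −0.02, Spred1 0.13 and Dusp4 0.49 against it.

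Of 17 tested genes on a list of other transcripts that ERK induces, 9 fell under dabrafenib and 8 did not, beside 19.6% of all genes. Those named here were chosen because they were called against vehicle, so their low values on both dabrafenib arrays follow from that choice. Etv4, an ETS transcription factor, read 7.50 and 7.38 on the dabrafenib arrays against 10.24 and 10.27 with vehicle. Egr1, an immediate early transcription factor, read 7.72 and 7.23 against 10.66 and 10.41, and Ier3, an early response gene, 10.86 and 10.53 against 11.79 and 11.75. Over the 17 tested genes of that list the median change was −0.52 on the first and −0.69 on the second dabrafenib array. The melanocytic tumour markers, which were higher under all drug arms, had a mean level of 12.71 on one and 12.74 on the other dabrafenib array. Markers of other cells differed more between these 2 arrays, with means of 8.44 and 10.49 for fibroblasts and 5.84 and 8.89 for adipocytes.

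**Figure D4:**
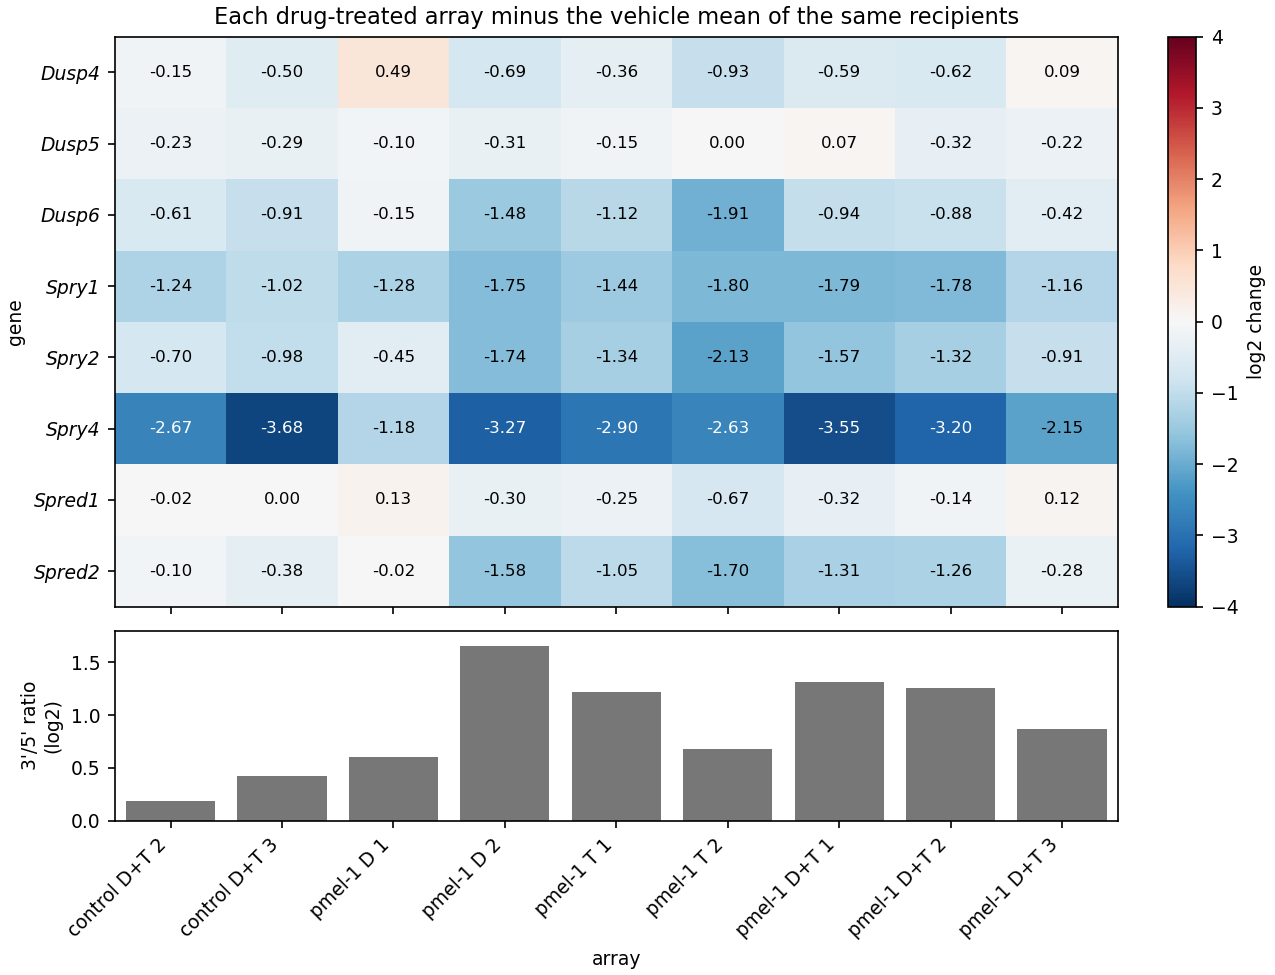
Top, log2 value of each gene on each drug array minus the vehicle mean of the same kind of recipient, with the value printed in each cell; bottom, the log2 3′/5′ ratio of the control probe sets of the same arrays. The first dabrafenib array has values from −1.28 to 0.49 and the second from −3.27 to −0.30.

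Signs of RNA quality differed between the groups. The log2 ratio of 3′ to 5′ signal of the Gapdh and actin control probe sets, which rises when RNA is degraded, was 0.18 to 0.28 on vehicle arrays and 0.19 to 0.42 with D+T in control recipients. In treated pmel-1 recipients it was 0.60 on the first and 1.65 on the second dabrafenib array, 1.22 and 0.68 on the trametinib arrays and 1.31, 1.26 and 0.86 with D+T. Within the dabrafenib and D+T groups the array with the lowest ratio had the smallest median loss, and within the trametinib group the array with the lower ratio had the larger. In pmel-1 recipients every treated array had a higher ratio than both vehicle arrays, so the covariate cannot tell drug from RNA quality there. With this ratio as a covariate 1 gene, Spry1, still fell in each of the 3 treatments of pmel-1 recipients (−1.24, −1.18 and −1.36 for D+T, dabrafenib and trametinib). Spry2 then read −0.55, −0.40 and −1.17 in that order, none of which passed. In control recipients, whose ratios were close to vehicle, the D+T values moved little, to −3.11 for Spry4 and −1.12 for Spry1, and both passed.

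Markers of other cells also differed between the groups. Of all 13785 genes tested, 3356 rose under D+T in pmel-1 recipients, 2572 in control recipients, 3012 under dabrafenib and 2693 under trametinib. All 5 leukocyte markers rose under D+T and under dabrafenib in pmel-1 recipients, 3 of 5 under trametinib and 2 of 5 under D+T in control recipients. Their mean log2 level per array was 6.85 to 6.89 in control and 7.44 to 7.52 in pmel-1 vehicle tumours, 7.49 to 7.64 with D+T in control recipients, at least 9.37 with dabrafenib (mean 9.68), 7.89 to 8.46 with trametinib and 9.47 to 9.97 with D+T in pmel-1 recipients, and no marker of the list read under the filter level. Macrophage markers rose under D+T in pmel-1 and control recipients and under dabrafenib (5 of 7 each) and under trametinib in 0 of 7, where 1 fell, and T cell markers rose under D+T (4 of 6) and dabrafenib (3 of 6) in pmel-1 recipients. Of the T cell markers, Cd3g read under the filter level in both vehicle groups, with D+T in control recipients and with trametinib. Cd3d did so with D+T in control recipients, and Cd8a lay between 6.29 and 6.54 on every array. Of 6 fibroblast markers, 1 rose under D+T in pmel-1 recipients, 2 in control recipients and 0 under either single drug, with median log2 changes from 1.0 to 1.43 over the 4 comparisons. The part of these cells in the results was not tested. Trametinib tumours had the lowest mean leukocyte level of the treated pmel-1 groups (8.17) and the most of the 8 genes called. D+T tumours of control recipients had a lower level still (7.56) and the fewest called (2 of 8). A relation between the 2 was not tested. Of the 7 melanocytic tumour markers, 6 rose in each treated group of pmel-1 recipients and 5 in control recipients, and their mean lay between 11.97 and 12.76 on every array, while Tyrp1 read under the filter level in both vehicle groups and with D+T in control recipients. On the second dabrafenib, the first trametinib and the second D+T array of pmel-1 recipients the 3 adipocyte markers on the array, of which Lep read under the filter level in every group, had means from 8.46 to 8.89, against 5.86 to 7.05 on vehicle and control D+T arrays. Without those 3 arrays 4 of the 8 genes fell under D+T in pmel-1 recipients (Dusp6 at −0.68, adjusted p = 0.0190), beside 5450 genes called in all. Dabrafenib and trametinib then kept 1 array each, so only changes are given for them. The kept dabrafenib array had a median change of −0.12 over the 8 genes and the kept trametinib array −1.75. Dusp4 read −0.93 and Spred1 −0.67 against vehicle on the latter, and Spry4 read −1.18 and Spry2 −0.45 under dabrafenib.

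Genes around the 8 in the pathway were counted from 4 lists, to be read beside the counts over all genes. Of all 13785 genes tested, 3356 rose and 2926 fell under D+T in pmel-1 recipients, and 2572 and 2302 in control recipients. Under dabrafenib 3012 rose and 2697 fell, and under trametinib 2693 and 2630. Of the 7 other MAP kinase phosphatases tested, 3 fell under D+T in pmel-1 recipients, 1 under D+T in control recipients, 4 under dabrafenib and 2 under trametinib, and none rose. Dusp7, a cytoplasmic ERK phosphatase, fell in pmel-1 recipients under D+T (−1.08 ± 0.14), dabrafenib (−0.75 ± 0.15) and trametinib (−0.90 ± 0.15). Dusp1, an immediate early nuclear phosphatase, fell there under D+T (−1.06 ± 0.19) and dabrafenib (−1.23 ± 0.21) and read −0.29 ± 0.21 under trametinib. Dusp2, a phosphatase known from lymphoid cells, fell in all 4 comparisons, with changes from −0.67 to −0.39.

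Of 10 other restraints on Ras and ERK tested, 3 rose and 2 fell under D+T in pmel-1 recipients, 3 rose and 1 fell in control recipients, 3 rose and 0 fell under dabrafenib, and 2 rose and 2 fell under trametinib. Il17rd (Sef), a membrane inhibitor of the pathway, rose by 1.11 ± 0.18 under D+T and 1.24 ± 0.20 under trametinib in pmel-1 recipients. Dab2ip, a Ras GTPase-activating protein, rose by 0.70 ± 0.14 and 0.60 ± 0.15. Spred3, the remaining Spred, fell under D+T in control recipients (−0.64 ± 0.11) and under trametinib (−0.32 ± 0.11), and read −0.10 ± 0.10 under D+T in pmel-1 recipients. Spry3 was under the filter level in all 6 groups.

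Of 13 genes tested from the core of the pathway, 6 rose under D+T in pmel-1 recipients, 3 in control recipients, 7 under dabrafenib and 5 under trametinib, and none fell. Ksr1, a scaffold of the kinases, rose by 0.63 ± 0.10 under D+T in pmel-1 recipients and read 0.16 ± 0.11 in control recipients, and Shc1, a receptor adaptor, by 0.90 ± 0.16 under D+T in control recipients. Sos1, an activator of Ras, rose by 1.11 ± 0.16 and Rps6ka3, a kinase activated by ERK, by 0.46 ± 0.10 under D+T in pmel-1 recipients, although the mean over the probe sets of each gene went the other way (−0.13 and −0.11).

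Of 17 tested genes among the other ERK-induced transcripts, 10 fell under D+T in pmel-1 recipients, 8 under D+T in control recipients, 9 under dabrafenib and 8 under trametinib, and 1 rose, in control recipients. The median log2 change was −0.74, −0.81, −0.64 and −0.59 in that order. Etv4 fell in all 4 comparisons, with changes of −3.28 ± 0.11 under D+T in pmel-1 recipients, −3.30 ± 0.12 in control recipients, −2.81 ± 0.12 under dabrafenib and −3.04 ± 0.12 under trametinib. Under D+T in pmel-1 recipients Egr1 (−2.87 ± 0.31), Ier3 (−1.28 ± 0.13) and Plaur, the urokinase receptor (−0.74 ± 0.10), fell as well. The standard errors of Etv4 were 0.11 to 0.12, against 0.58 to 0.64 for Spry4.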

How the data were processed

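The series holds 13 arrays of mouse SM1 tumours (Affymetrix) in 6 groups of 2 or 3. The deposited values are log2 intensities per probe set, which the submitters' processing notes ascribe to RMA and affy, without versions. The sources used here do not give the probe set definition or any batch. Of 45101 probe sets 34945 had exactly 1 symbol in the platform table, 932 several and 9160 none. A gene was represented by its brightest probe set on average, and tested if it exceeded 5.79, the 40th percentile of the table, on at least 2 arrays.

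In R 4.3.3, limma 3.58.1 was used to fit 6 group means on the 13 arrays together (7 residual degrees of freedom, no block), followed by eBayes, so that the groups share 1 variance per gene, for 10 contrasts, with Benjamini-Hochberg adjustment within each. The same fit was made over 29168 probe sets. The fit was tested on simulated data. The number of arrays limits the precision. The members, gene lists, markers and alternatives were chosen with earlier results of these data known. All 8 members are named; from each pathway list, up to 2 called genes with the smallest p per comparison with vehicle; and for each member called under D+T, the 3 genes with the highest Pearson r over the arrays, leaving out provisional symbols (RIKEN, Gm, LOC and clone names). Alternatives were the mean over probe sets, other filters, only the arrays compared, array weights, a trended robust variance, median centring, the replicate block, the 3′/5′ ratio as a covariate, leaving out 3 arrays with high Adipoq, and leaving out each array.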

Additional observations from a re-analysis of the deposited data

How the results depend on the processing

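Spry1 fell in all 4 comparisons with vehicle under all 23 alternatives each (log2 change −1.80 to −1.02), and Spry4 under D+T in control recipients likewise (−3.68 to −2.30). No member was called under any alternative in the contrasts between drug groups or between recipients. With only the arrays compared, 5 members passed under D+T in pmel-1 recipients (beside 5944 genes), 4 in control recipients (4467), 1 under dabrafenib (4237) and 6 under trametinib (5523). The 3′/5′ covariate left 1 member each under D+T in pmel-1 recipients, dabrafenib and trametinib, and 2756, 2511 and 3371 genes against 6282, 5709 and 5323. Without the 3 arrays with high Adipoq, 4 members passed under D+T in control recipients (4831 genes), 1 under dabrafenib (3307) and 7 under trametinib (3829). Leaving out 1 array gave 2 to 5 members (4505 to 6439 genes) under D+T in pmel-1 recipients, 2 to 4 (3265 to 5089) in control recipients, 1 to 5 (3643 to 5813) under dabrafenib and 3 to 6 (3643 to 5579) under trametinib. The lone array of a group left with 1 is then assumed to vary like the others.

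All genes called in dabrafenib against trametinib numbered 107, and 0 with only the arrays compared, 24 with the replicate block, 191 with the covariate, 27 without the arrays with high Adipoq and 0 to 283 on leaving out 1 array. In D+T against trametinib they numbered 151, 286 with array weights, 12 with the replicate block and 0 to 318 on leaving out 1 array. In the interaction 39 became 90 when only the arrays compared were fitted, 65 under array weights, 67 with median centring, 1 with the replicate block, 0 with the covariate, 85 without the arrays with high Adipoq and 0 to 84 on leaving out 1 array. For pmel-1 against control recipients on vehicle 0 became 3 without a filter, 2 when only the arrays compared were fitted, 5 under array weights, 5 with median centring, 2 with the covariate, 1 without the arrays with high Adipoq and 0 to 48 on leaving out 1 array. On D+T 584 became 378 with only the arrays compared, 232 with the replicate block, 46 with the covariate, 331 without the arrays with high Adipoq and 119 to 1206 on leaving out 1 array. D+T against dabrafenib stayed at 0 in all of these.

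Replicate numbers recur across groups, but deviations from the group means in the 23 pairs of arrays with the same number correlated between −0.46 and 0.45 (median −0.07), so the pairing is not borne out. The replicate block gave 3, 2, 3 and 5 called members in the 4 comparisons with vehicle, beside 5579, 3884, 5109 and 4731 genes. With the mean over probe sets Sos1 and Rps6ka3 reversed, to −0.13 and −0.11 under D+T and −0.11 and −0.10 under dabrafenib in pmel-1 recipients. The cause of these changes was not tested. Arrays number 2 or 3 per group, which limits every comparison, most of all those involving dabrafenib, whose arrays differed most for these genes.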

Other observations

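The genes whose values followed a Sprouty most closely were sought over the 13 arrays, among 13037 genes, by Pearson r. These are descriptions: the arrays share 6 treatment groups and differ in RNA quality, and many genes differ between vehicle and drug. Spry2 lay closest to Dusp6 (r = 0.968), followed by Acsl3, a fatty acid activating enzyme (0.961), and Etv5, an ETS transcription factor that ERK induces (0.960). Spry1 lay closest to Chsy1, which builds chondroitin sulphate chains (0.982), Lrp12 (0.982) and Ica1 (0.981), and Spry4 to the R-spondin receptor Lgr4 (0.979), the threonyl-tRNA synthetase gene Tars (0.978) and the tocopherol transfer protein gene Ttpa (0.976).

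Among the 8 genes themselves r was 0.97 for Dusp6 and Spry2, 0.93 for Spry1 and Spry4, 0.92 for Dusp4 and Spred2 and 0.92 for Spred1 and Spred2, each over 13 arrays. Dusp5 stood apart, with r between −0.37 and 0.33 to the other 7.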
